A study of Arabidopsis thaliana with 8 samples.

Results

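The comparison described here sets the fil yab3 yab5 triple mutant against wild type. Its members are 6 of the 8 arrays of the series, chosen by their titles. The triple mutant, labelled fil-8 yab3-2 yab5-1, was measured on 2 arrays and wild type on 4. All plants were of the Landsberg erecta (Ler) ecotype and grew for 14 days in short days, and RNA came from their apices. The other 2 arrays hold the fil-8 yab3-2 double mutant. They entered the fit as a separate group, and their values are named only where they bear on a gene. Nothing in the labels tells whether separate plants gave the arrays of a group. The p-values therefore reflect the spread among these arrays alone, and that spread may be technical.

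YABBY genes encode small transcription factors of seed plants. In Arabidopsis leaf primordia FILAMENTOUS FLOWER (FIL), YAB3 and YAB5 are transcribed on the abaxial side, the side away from the meristem, and are absent from the meristem itself. They act together in the outgrowth of the flat leaf blade, in the identity of the abaxial side and in the boundary between leaf and shoot. The comparison asks which transcripts of the apex differ when FIL, YAB3 and YAB5 are lost at once. An apex holds meristem, young leaves and other cells, so fewer cells of a type and less RNA per cell cannot be told apart.

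Values are log2 signals as deposited, on a scale whose lowest value, shared by many dim genes, is near 2.1. A gene was tested where it lay above a log2 value of 4 on at least 2 arrays, and it passed where limma's adjusted p was under 0.05. Each difference is the triple mutant minus wild type, followed by its fitted standard error (SE). If a group stayed at or below 4 on all its arrays, the size of the difference is open at that end, and "at least N-fold" gives the mean of the brighter group over that level. Wild-type arrays 1 and 2 differed from arrays 3 and 4 in several ways. The triple mutant arrays correlated with each other at a Pearson's r of 0.98, and over tested probe sets r was 0.913 to 0.919 for wild-type arrays 3 and 4, but 0.85 to 0.863 for arrays 1 and 2. Median spike-in signal was 3.41 and 3.89 on the triple mutant arrays, against 7.02, 7.06, 4.44 and 2.98 on wild-type arrays 1 to 4, and 42 of 45 spike-ins were brighter on wild-type arrays 1 and 2 than on any other array. The mean gap between 3′ and 5′ control probe sets was 0.732 and 0.599 on the triple mutant arrays, against 1.29, 1.44, 0.501 and 0.466 on the wild-type arrays. Double mutant array 1 had a gap of 1.41 and array 2 of 0.593, so a wide gap is not limited to wild-type arrays 1 and 2. Differences are therefore also given against arrays 3 and 4 alone. The part of these features in the results was not tested.

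The label was checked on the targeted genes. YAB3 signal was 4.40 and 5.50 on the triple mutant arrays, against 8.46, 8.35, 9.48 and 8.91 on the wild-type arrays, and the groups did not overlap. The difference was -3.85 ± 0.55 (SE; limma adjusted p = 0.0129) and -4.25 against wild-type arrays 3 and 4 (adjusted p = 0.0221). YAB5 signal was 5.28 and 5.02 on the triple mutant arrays, against 7.52, 7.17, 5.51 and 5.32 on the wild-type arrays. Its difference of -1.23 ± 0.66 did not pass (adjusted p = 0.358), and against arrays 3 and 4 it was -0.26. The sources used here do not tell whether the YAB5 probe set covers the part that yab5-1 affects. The ovule gene INO, also of the YABBY family, lay at the floor of 2.1 on all 6 arrays, and FIL has no probe set naming it alone. Leaving out triple mutant array 1 or 2 ended the YAB3 call (adjusted p = 0.169 and 0.0909).

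Markers of the tissue gave little to check. Of 19 meristem and boundary genes listed, 3 had a probe set of their own, the stem cell gene CLV3, the axillary meristem gene LAS and the floral meristem gene UFO. All 3 lay at or below 2.94 on the triple mutant and wild-type arrays, so they could not be used to check the labelled apex. The root hair expansin EXPA7 was at 2.1 on all 6 arrays, and the senescence genes SAG29 and WRKY53 were at or below 3.87. None of 9 flower markers had a probe set naming it alone.

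The triple mutant differed from wild type in both directions, at some genes between the floor and the upper part of the scale. Of 7433 named genes tested, 158 were raised (2.13%) and 125 lowered (1.68%). Over all 13888 tested probe sets, 538 passed (3.87%). Raised probe sets made up 308 of them (2.22%) and lowered ones 230 (1.66%). On all 538 the triple mutant arrays lay outside the range of the wild-type arrays. That holds by position alone for 15.5% of all tested probe sets above wild type and 17.5% below it. The median size of the difference was 1.82 log2 units among those that passed, and 0.377 over all tested.

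Against wild-type arrays 3 and 4 alone more genes passed and the balance turned. Of 7280 named genes tested there, 273 were raised (3.75%) and 372 lowered (5.11%), and of 13664 probe sets 1265 passed (9.26%), 566 raised (4.14%) and 699 lowered (5.12%). The comparisons share the triple mutant arrays and wild-type arrays 3 and 4. Of the named genes, 140 were raised and 111 lowered in both. The plot of one difference against the other shows these genes near the diagonal and, off it, genes at which the wild-type pairs differed. Calls rested on both triple mutant arrays. Without array 1 or array 2, 46 and 47 probe sets passed. Without wild-type array 1, 2, 3 or 4, 317, 372, 578 and 353 passed, and without double mutant array 1 or 2, 303 and 299. Against arrays 3 and 4 alone the count fell to 23 and 11 without triple mutant array 1 or 2, and to 165 and 130 without wild-type array 3 or 4.

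**Figure D1:**
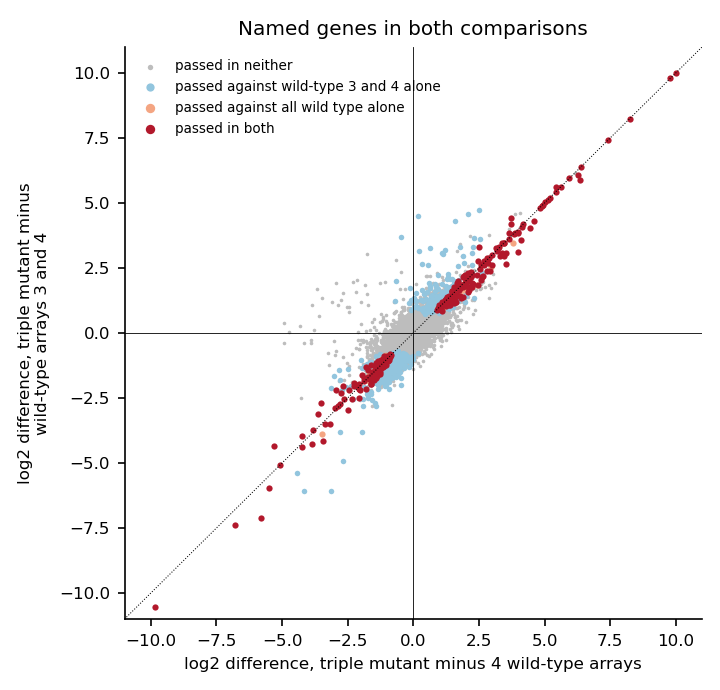
Log2 difference of each named gene, triple mutant minus all 4 wild-type arrays (x axis) and minus wild-type arrays 3 and 4 (y axis). The 251 genes that passed in both lie near the dotted diagonal, and all 251 have the same sign in both.

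Some genes were bright in the triple mutant and dim on every wild-type array. Of the 158 raised genes, 52 had all 4 wild-type arrays at or below a log2 value of 4, and in 37 of these both double mutant arrays lay there too. Such genes entered the test only through mutant arrays above 4, so their number and their p-values are not read as support. The same holds for AT2G45920, BGLU45, CCR2, EXPA20, EXPA9, TBL32, SLY2 and CYP71B36, whose p-values below only show that they passed. No p is given for the other raised genes of this kind that are named. AT1G33790 and AT1G35612, each with 1 wild-type array just above 4, also entered the test only through mutant arrays. Their p-values likewise only show that they passed. In the opposite direction, 17 of the 125 lowered genes had both triple mutant arrays at or below 4, and 13 of these were above 4 on both double mutant arrays.

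AT2G25510 had the largest difference, at 11.94 and 12.26 in the triple mutant, against 2.1 on all 4 wild-type arrays. That made it at least 274-fold higher. ZW9, a gene of the family with TRAF-like (MATH) domains, was at 11.89 and 12.01 in the triple mutant, against 2.16 on all 4 wild-type arrays, at least 248-fold higher. AT2G25450 was at 10.24 and 10.45, against 2.1 on all 4 wild-type arrays, at least 81.3-fold higher. These 3 genes lay at the floor on all wild-type arrays. No sequence was examined, so for genes of this kind a difference in transcript level and one in probe binding cannot be told apart.

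The other 9 of the 12 most raised genes bear only locus identifiers. AT1G52100 was at 8.74 and 10.32 in the triple mutant, against 2.11 on all wild-type arrays (at least 46.1-fold). AT3G44430 was at 8.53 and 8.47, against 2.11 (at least 22.6-fold). AT5G56910 was at 9.34 and 9.45, against 3.28, 2.56, 3.30 and 3.35 (at least 42.0-fold). No wild-type array came within 5 log2 units of the triple mutant on these genes. AT1G65370 was at 8.51 and 9.71, against 2.85, 3.52, 3.18 and 3.12 (at least 34.5-fold). AT1G63880 was at 7.53 and 7.94, against 2.1 (at least 13.3-fold), AT5G45500 at 7.54 and 7.53, against 2.1 (at least 11.6-fold), and AT5G56380 at 6.72 and 7.87, against 2.1 (at least 9.83-fold). For AT1G33790 and AT1G35612, 1 of the 4 wild-type arrays lay just above 4 and the other 3 below it, so their differences are set against a mostly dim wild type. AT1G33790 was at 9.29 and 9.49, against 2.98, 2.23, 4.02 and 2.96, a difference of 6.34 ± 0.44 (adjusted p = 0.000397, and 5.90 against arrays 3 and 4). AT1G35612 was at 8.97 and 9.20, against 3.63, 4.05, 3.64 and 3.28, a difference of 5.43 ± 0.37 (adjusted p = 0.000368, and 5.62). Both were also bright in the double mutant, AT1G33790 at 6.15 and 6.18 and AT1G35612 at 8.72 and 7.48, while of the other 10 only ZW9 passed 4 there, on array 1 (4.25).

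**Figure D2:**
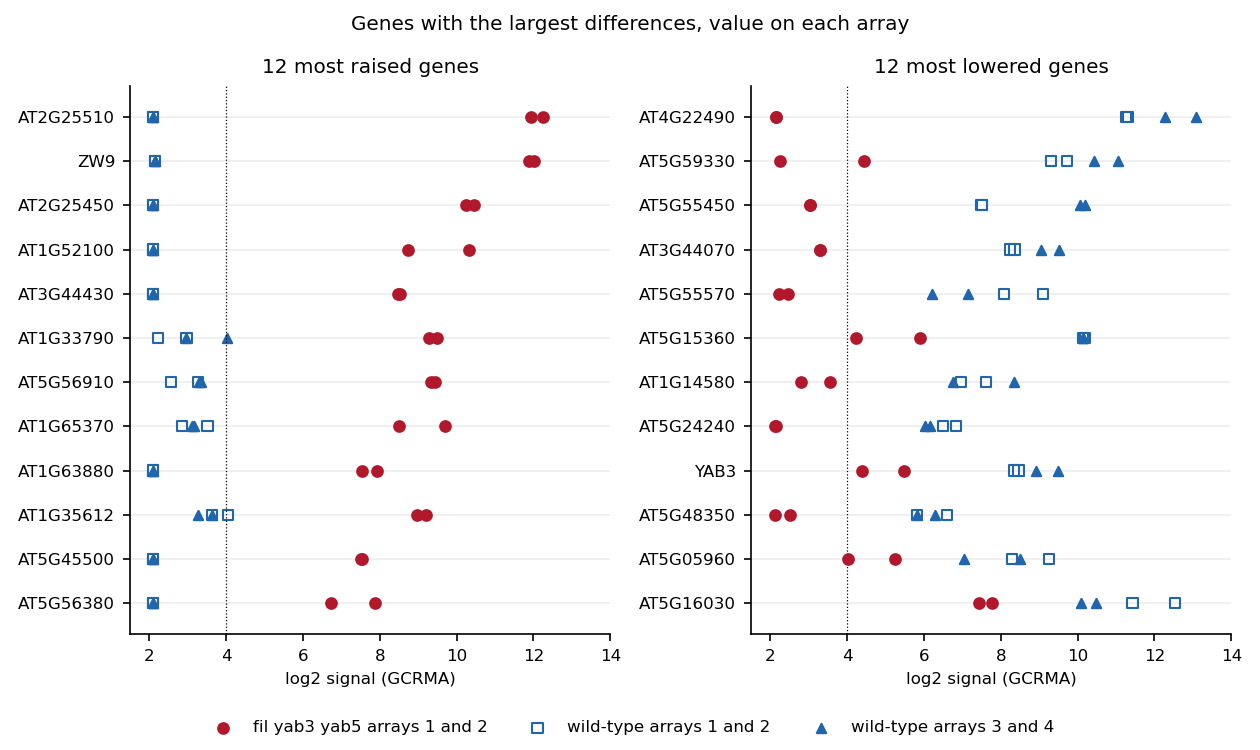
Log2 signal on each triple mutant array (red circles) and wild-type array (blue, open squares for arrays 1 and 2 and triangles for arrays 3 and 4) for the 12 most raised and 12 most lowered genes that passed in both comparisons. The dotted line marks the level of 4; on the 12 raised genes every triple mutant value is at or above 6.72 and every wild-type value at or below 4.05.

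Among the lowered genes AT4G22490 stood first, at 2.16 on both triple mutant arrays, against 11.25, 11.31, 13.09 and 12.26 in wild type, at least 252-fold lower (adjusted p = 0.000619, and 0.00374 against arrays 3 and 4). AT5G59330 was at 4.45 and 2.26 in the triple mutant, against 9.31, 9.72, 11.06 and 10.42, a difference of -6.77 ± 0.69 (adjusted p = 0.00278, and -7.39 against arrays 3 and 4). The double mutant was dim on both genes, with AT4G22490 at 2.16 and 4.52 and AT5G59330 at 3.01 and 3.65. AT3G44070 was at 3.31 on both triple mutant arrays, against 8.36, 8.24, 9.05 and 9.51 in wild type, at least 27.6-fold lower, and stood at 10.02 and 8.97 in the double mutant. AT5G55450 was at 3.03 on both, against 7.52, 7.50, 10.07 and 10.19, at least 28.3-fold lower. AT5G15360 was at 4.23 and 5.91, against 10.13, 10.19, 10.13 and 10.13, a difference of -5.08 ± 0.42 (adjusted p = 0.000974, and -5.06). On each of these 5 genes the groups were at least 3 log2 units apart.

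AT5G55570, AT1G14580, AT5G24240 and AT5G48350 were below 4 on both triple mutant arrays and above 4 on every wild-type array, at least 12.4-fold, 10.7-fold, 5.20-fold and 4.39-fold lower. AT5G05960 differed by -3.63 ± 0.65 (adjusted p = 0.029, and -3.13 against arrays 3 and 4) and AT5G16030 by -3.53 ± 0.65 (adjusted p = 0.0315, and -2.68). Their triple mutant values, 4.03 and 5.26 for AT5G05960 and 7.45 and 7.78 for AT5G16030, were like those of the double mutant, 5.25 and 4.20 and 8.10 and 8.73. YAB3 was the remaining lowered gene of the 12. Of these 24 genes, 9 kept their calls without triple mutant array 1 and 9 without array 2. A further 9 were then untested, since they are bright only in the triple mutant, and 6 lost their calls (YAB3, AT5G55450, AT5G55570, AT1G14580, AT5G05960 and AT5G16030; adjusted p = 0.0664 to 0.263). AT5G05960 also lost its call without wild-type array 1, 2 or 4 (adjusted p = 0.0735, 0.0612 and 0.0626).

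The raised genes were spread unevenly over the chromosomes. On chromosome 5, 58 of 1760 named genes tested were raised (3.30%) and 41 lowered (2.33%), while on chromosome 4, 7 of 1051 were raised (0.666%) and 16 lowered (1.52%). Chromosomes 1, 2 and 3 held 42 of 1937, 21 of 1063 and 29 of 1539 raised genes (2.17%, 1.98% and 1.88%). Of the 52 genes raised above a dim wild type, 15, 9, 9, 1 and 18 lie on chromosomes 1 to 5. Against arrays 3 and 4 the raised shares were 4.48% on chromosome 5 and 2.13% on chromosome 4. These are descriptions by gene order in the TAIR10.1 gene table of the Columbia accession, with no test.

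The densest stretch of raised genes, chosen after the values were seen, lies on chromosome 1. From AT1G62020 to AT1G65370, 13 of 100 consecutive named tested genes were raised and 4 lowered, where the median stretch of this chromosome held 2 raised genes. It holds BETA-VPE, a vacuolar processing enzyme (a protease that matures proteins in vacuoles), the copper amine oxidase gene CuAO1, AT1G63880 and AT1G65370. BETA-VPE was at 5.29 and 5.92 in the triple mutant, against 2.74, 2.39, 3.06 and 2.78 in wild type, at least 3.04-fold higher. CuAO1 was at 8.45 and 8.64, against 5.41, 5.61, 4.27 and 4.0, a difference of 3.72 ± 0.51 (adjusted p = 0.0108, and 4.41 against arrays 3 and 4).

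Calls near the mutated genes were counted beside the 3.81% of all named genes that passed. Among the 25 named tested genes on each side of YAB5, none of 50 passed with limma, none of 28 passed around YAB3, which lies near a chromosome end, and 1 of 50 passed around FIL. With wild-type arrays 3 and 4 alone, 1 gene was lowered in each of the 3 neighbourhoods, beside 5.11% of all named genes. The gene called near FIL, AT2G45920, was at 3.81 and 4.28 in the triple mutant, against 2.13, 2.37, 2.34 and 2.47 in wild type (adjusted p = 0.043, and 0.0734 against arrays 3 and 4). AT2G25450 and AT2G25510 are next to each other among the named tested genes, with 6 annotated genes between them. AT2G25510 lies 31 named tested genes from YAB5 on chromosome 2, outside that neighbourhood, with 121 annotated genes between it and YAB5.

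**Figure D3:**
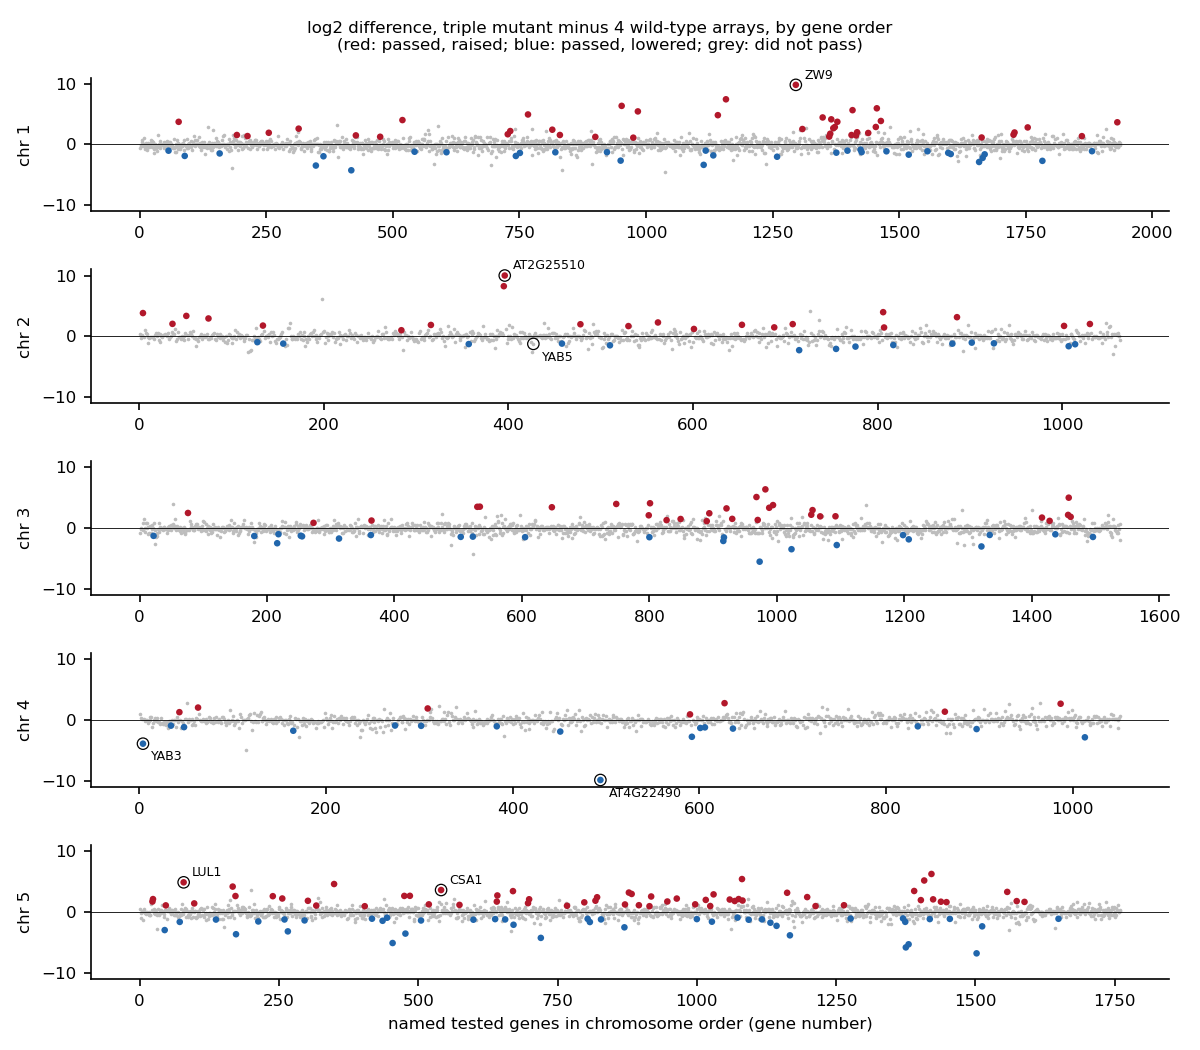
Log2 difference of each named gene, triple mutant minus all 4 wild-type arrays, in gene order along chromosomes 1 to 5, with raised calls in red, lowered calls in blue and 7 genes circled and named. Raised calls are few on chromosome 4 (7 of 1051) and frequent on chromosome 5 (58 of 1760).

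Functional classes were built from gene symbols, and only 1087 of the 7433 named genes bear a symbol that is not a locus identifier. Of these, 47 passed, 32 raised and 15 lowered, beside 3.81% of all named genes passing. The classes describe members with a symbol, and the many called genes without one lie outside them. Over all named genes the median difference was -0.02 against all wild type and -0.03 against arrays 3 and 4.

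In the 5 classes of nuclear genes for plastid functions, all calls were in the lowered direction. Of 47 tested members of the photosystem, Calvin cycle, chlorophyll and carotenoid, plastid division and protease, and plastid RNA and complex assembly classes, none was raised and 4 were lowered, beside 1.68% of all named genes (limma; HCF101, CHLI2, FTSZ2-2 and LPA1). The median difference of the 47 was -0.56, with 43 of 47 below 0, and -0.42 against arrays 3 and 4, with 36 of 47 below 0. Against arrays 3 and 4, 8 were lowered, beside 5.11% of all named genes there. HCF101, an iron-sulphur cluster scaffold needed for photosystem I, was at 10.02 and 10.00 in the triple mutant, against 11.48, 11.37, 11.45 and 11.59 in wild type, a difference of -1.46 ± 0.17 (adjusted p = 0.00547, and -1.51 against arrays 3 and 4 with an adjusted p = 0.0116). CHLI2, a subunit of the magnesium chelatase that opens chlorophyll synthesis, was at 9.56 and 9.23, against 10.64, 10.92, 10.62 and 10.38, a difference of -1.25 ± 0.22 (adjusted p = 0.0279, and -1.11). FTSZ2-2, which forms the ring that divides plastids, was at 8.81 and 8.87, against 10.27, 10.08, 9.78 and 9.69, a difference of -1.12 ± 0.23 (adjusted p = 0.0472, and -0.90). LPA1, needed for photosystem II assembly, was at 8.73 and 8.57, against 9.63, 9.60, 9.69 and 9.76, a difference of -1.02 ± 0.20 (adjusted p = 0.0419, and -1.08). All 4 lay below every wild-type array of both pairs, as did all 230 lowered probe sets that passed.

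Within the plastid group the genes of the light reactions themselves did not pass. None of 15 photosystem and antenna genes passed with limma, and their median difference was -0.23 against all wild type but 0.05 against arrays 3 and 4. The largest, TAPX, a thylakoid ascorbate peroxidase, differed by -0.79 (adjusted p = 0.249, and -0.43 against arrays 3 and 4). None of 4 Calvin cycle and photorespiration genes passed, SBPASE and PRK differing by -0.82 and -0.53 (adjusted p = 0.2 and 0.262, and -0.43 and -0.28 against arrays 3 and 4). All 9 chlorophyll, haem and carotenoid genes lay below 0 against all wild type and against arrays 3 and 4. Of 16 genes for plastid RNA, the NDH complex and complex assembly, 15 lay below 0 in both comparisons, with a median of -0.78, and -0.46 against arrays 3 and 4. Against arrays 3 and 4, CRR21, CRR28 and OTP81, pentatricopeptide repeat proteins that edit plastid RNA, and CAF1, a plastid intron splicing factor, also passed, at -1.26, -1.22, -1.41 and -1.17 (adjusted p = 0.0213, 0.0251, 0.0298 and 0.0327). OTP81 and CAF1 overlapped wild-type arrays 1 and 2. With all wild-type arrays those 4 had adjusted p = 0.0605, 0.0738, 0.646 and 0.527.

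Among genes with a symbol but in no class, 4 lowered ones that act in plastids were picked after their values were seen. That choice fixes their direction, and APS4 and PPDK, whose products also act in plastids, were raised (values below). PDF1B, a plastid peptide deformylase, was at 9.47 and 8.97 in the triple mutant, against 10.36, 10.33, 10.95 and 10.94 in wild type, a difference of -1.42 ± 0.28 (adjusted p = 0.0408, and -1.72 against arrays 3 and 4). Cpn60beta4, a plastid chaperonin subunit, was at 7.51 and 7.68, against 9.14, 8.85, 8.75 and 9.22, a difference of -1.39 ± 0.25 (adjusted p = 0.0295, and -1.39). NOL, a chlorophyll b reductase, was at 9.15 and 9.06, against 10.14, 10.39, 10.23 and 10.54, a difference of -1.22 ± 0.23 (adjusted p = 0.0352, and -1.28). LIL3:1, a light-harvesting-like protein of chlorophyll synthesis, was at 10.32 and 10.35, against 11.55, 11.36, 11.23 and 11.22, a difference of -1.0 ± 0.18 (adjusted p = 0.0313, and -0.89). Apart from that of HCF101 (limma adjusted p = 0.00547), these calls of nuclear genes acting in plastids were close to the threshold. Without triple mutant array 1 or 2, HCF101, CHLI2, FTSZ2-2 and LPA1 all lost theirs (adjusted p = 0.115 to 0.365), and FTSZ2-2 and LPA1 lost theirs without any 1 wild-type array (adjusted p = 0.0584 to 0.0861). CHLI2 lost its call without wild-type array 1 or either double mutant array. PDF1B and NOL lost theirs without any 1 wild-type array, and Cpn60beta4 and LIL3:1 without wild-type array 1, 2 or 4. Without triple mutant array 1 or 2 none of these last 4 kept its call (limma adjusted p = 0.186 to 0.375).

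Genes encoded in the plastid genome differed between the wild-type pairs. Over 68 tested genes the median signal was 3.54 and 3.94 on the triple mutant arrays, against 11.34 and 11.21 on wild-type arrays 1 and 2 and 3.07 and 3.70 on arrays 3 and 4, and the double mutant arrays were at 4.12 and 6.18. Over the same 68 genes the median difference of the triple mutant was -3.05 from all wild type, -6.78 from wild-type arrays 1 and 2 and 0.05 from arrays 3 and 4, and none was called by limma against all wild type. The lower level against all wild type thus came from arrays 1 and 2. Without wild-type arrays 1 and 2, 37 passed the filter on low values and 4 were raised, beside 3.75% of all named genes there. The 4 were psbM, a small photosystem II subunit, rps4, a ribosomal protein, ndhC, an NDH subunit, and rpoA, a subunit of the plastid RNA polymerase. psbM was at 10.51 and 10.18 in the triple mutant, against 14.63 and 14.33 on wild-type arrays 1 and 2 and 4.85 and 6.84 on arrays 3 and 4, a difference of 4.50 from arrays 3 and 4 (adjusted p = 0.0219). The differences of rps4, ndhC and rpoA from arrays 3 and 4 were 3.71, 3.26 and 2.01 (adjusted p = 0.0368, 0.0325 and 0.0121). All 4 thus lay between the wild-type pairs.

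**Figure D4:**
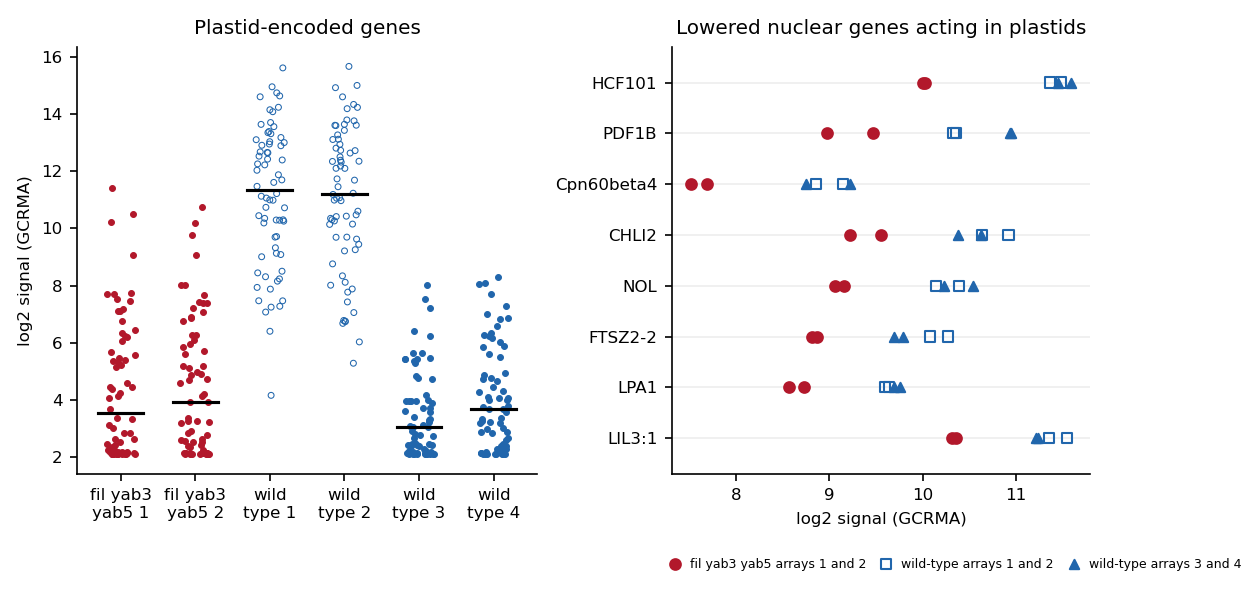
Left, log2 signal of the 68 tested plastid-encoded genes on each triple mutant and wild-type array, with the median as a bar; wild-type arrays 1 and 2 stand at medians of 11.34 and 11.21, the other arrays between 3.07 and 3.94. Right, 8 lowered nuclear genes that act in plastids, picked for being lowered, each triple mutant value (red) below every wild-type value (blue).

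Of 8 tested stomatal and trichome genes 1 passed, MUTE, in the lowered direction, beside 1.68% lowered over all named genes. All 8 lay below 0 against all wild type, between -1.68 and -0.27, and 7 of 8 against arrays 3 and 4, with a median of -0.78. MUTE, which drives stomatal precursors towards guard mother cells, was at 3.33 and 2.82 in the triple mutant, against 4.55, 4.38, 4.04 and 4.42 in wild type, at least 1.27-fold lower (adjusted p = 0.0306, and 0.0476 against arrays 3 and 4). Its call was lost without any 1 array other than wild-type array 3 (adjusted p = 0.0601 to 0.326). SIM, a cyclin-dependent kinase inhibitor of trichomes, differed by -1.37 (adjusted p = 0.0523, and -1.16 against arrays 3 and 4 with an adjusted p = 0.0725). TRY, an inhibitor of trichome fate, was at 3.40 and 3.44, against 6.91, 5.57, 3.89 and 4.04, so that it differed by -1.68 from all wild type and by -0.55 from arrays 3 and 4 (adjusted p = 0.315 and 0.25).

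None of 8 tested leaf polarity, lamina and margin genes passed with limma against all wild type or arrays 3 and 4. SPT (SPATULA), a bHLH factor that limits leaf size, was at 7.31 and 8.06 in the triple mutant, against 5.95, 4.53, 6.07 and 6.34 in wild type, with no overlap, and differed by 1.96 ± 0.53 (adjusted p = 0.0944, and 1.48 against arrays 3 and 4 with an adjusted p = 0.0591). NGA2, a B3 factor of the leaf margin, was at 3.97 and 4.37, against 7.96, 7.52, 4.65 and 4.89, and differed by -2.08 ± 0.98 (adjusted p = 0.293, and -0.60). The SEUSS co-repressor gene SEU, whose product binds YABBY proteins, differed by 0.03 and, against arrays 3 and 4, by 0.02. Lowered symbol-bearing genes outside the classes included EMS1, a receptor kinase of anther cell fate, at 6.52 and 6.13, against 7.57, 8.22, 7.74 and 7.90 (-1.53, adjusted p = 0.0184, and -1.49).

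Of 56 tested members of 9 cell wall classes, 6 were raised (BGLU45, CCR2, EXPA20, GH9B13, TBL32 and EXPA9) and none lowered with limma. Over all named genes, 2.13% were raised and 1.68% lowered. All of the 6 but GH9B13 had every wild-type array at or below 4 and entered the test only through mutant arrays, so this count is not read as support. Against arrays 3 and 4, 10 of 52 were raised and none lowered, beside 3.75% raised and 5.11% lowered over all named genes there. The 10 include BGLU45, CCR2, EXPA20, EXPA9 and TBL32, which entered that test too only through mutant arrays. This count is not read as support either. The median difference of the members was 0.33, with 31 of 56 above 0, and 0.43 against arrays 3 and 4, with 37 of 52 above 0. BGLU45, a glucosidase that releases lignin precursors, was at 7.22 and 7.21 in the triple mutant, against 2.42, 2.36, 3.56 and 2.78 in wild type, at least 9.29-fold higher (adjusted p = 0.000732, and 0.00331 against arrays 3 and 4). CCR2, a cinnamoyl-CoA reductase of monolignol synthesis, was at 7.05 and 5.91, against 3.61, 2.44, 2.24 and 3.04, at least 5.58-fold higher (adjusted p = 0.0096, and 0.0161). Another 3 of the 5 lignin genes tested did not pass. Both genes were also bright in the double mutant, BGLU45 at 6.37 and 6.53 and CCR2 at 4.99 and 5.68.

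GH9B13, an endoglucanase of glycosyl hydrolase family 9, was at 10.68 and 10.46 in the triple mutant, against 8.06, 7.93, 9.01 and 8.97 in wild type, a difference of 2.08 ± 0.36 (adjusted p = 0.0279, and 1.58 against arrays 3 and 4). Of 11 expansins, proteins that loosen walls, EXPA20 and EXPA9 were raised and 10 lay above 0. EXPA20 was at 6.01 and 5.72, against 3.05, 3.05, 3.47 and 3.05, at least 3.64-fold higher (adjusted p = 0.0109, and 0.0322). EXPA9 was at 4.61 and 4.01, against 3.47, 3.10, 3.14 and 3.10, at least 1.24-fold higher (adjusted p = 0.0483, and 0.0411). TBL32, of the TRICHOME BIREFRINGENCE-LIKE family that acetylates wall polymers, was at 4.94 and 5.16, against 3.52, 3.95, 3.88 and 3.77, at least 2.07-fold higher (adjusted p = 0.0274, and 0.0313). It was 1 of 17 tested in a family whose median was -0.30. EXPA9 and TBL32 were dim in all samples, and their rises were small.

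The xyloglucan and cellulose families did not pass against all wild type with limma. XTH32, a xyloglucan endotransglucosylase, was at 12.07 and 11.80 in the triple mutant, against 11.20, 10.15, 10.48 and 10.40 in wild type (1.38, adjusted p = 0.0818), and passed against arrays 3 and 4 (1.49, adjusted p = 0.0402). EXGT-A3, of the same family, passed there too (1.93, adjusted p = 0.0156), as did CSLC12, a glucan synthase of the cellulose synthase family (0.94, adjusted p = 0.0451), and TBL25 (0.89, adjusted p = 0.0416). EXGT-A3 and TBL25 lay below wild-type arrays 1 and 2 and above arrays 3 and 4. Without triple mutant array 1 or 2, EXPA20, GH9B13 and CCR2 lost their calls (adjusted p = 0.0633 to 0.243), EXPA9 and TBL32 were untested and BGLU45 kept its call. EXPA9 lost its call without any 1 wild-type or double mutant array, GH9B13 without wild-type array 1 or either double mutant array, and TBL32 without wild-type array 1 or 4.

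**Figure D5:**
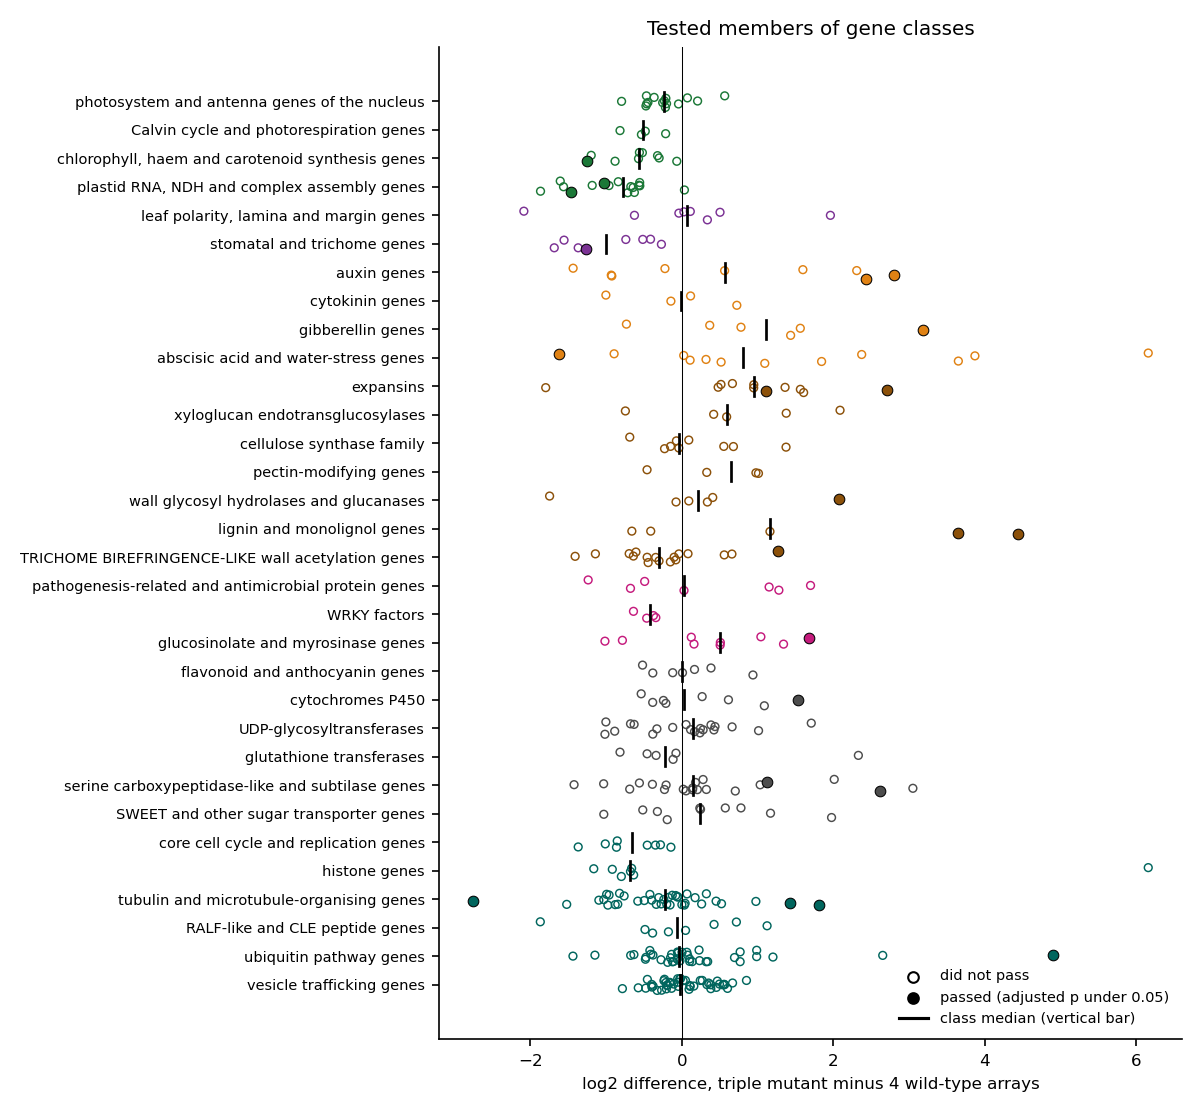
Log2 difference, triple mutant minus all 4 wild-type arrays, of the tested members of each class with at least 4 of them, with filled points for members that passed and a bar at the class median. Filled points lie left of 0 in the plastid and the stomatal and trichome classes and right of 0 in the cell wall classes.

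Hormone genes passed in both directions. Of 38 tested members of 7 hormone classes, 3 were raised (SLY2, WES1 and GH3.17) and 2 lowered (AT2G46140 and MYC3). Over all named genes, 2.13% were raised and 1.68% lowered. The median difference was 0.51, and 0.89 against arrays 3 and 4. SLY2, with every wild-type array at or below 4, entered the test only through mutant arrays. WES1 (GH3.5), which joins auxin to amino acids, was at 12.90 and 12.60 in the triple mutant, against 9.43, 9.62, 10.63 and 10.14 in wild type, a difference of 2.80 ± 0.36 (adjusted p = 0.00805, and 2.37 against arrays 3 and 4 with an adjusted p = 0.0118). GH3.17, of the same enzyme family, was at 10.94 and 11.28, against 8.07, 8.15, 9.77 and 8.75, a difference of 2.43 ± 0.49 (adjusted p = 0.0444, and 1.85, adjusted p = 0.0528). In contrast GH3.3 and the auxin response repressor IAA30 passed in the lowered direction against arrays 3 and 4 (-1.65 and -1.59, adjusted p = 0.0393 and 0.0088), with GH3.3 at 7.44 and 8.01, against 7.97, 7.88, 9.58 and 9.17. Members of the GH3 family thus passed in opposite directions there. IAA30 was at 4.15 on both triple mutant arrays, against 4.27, 4.58, 5.74 and 5.74 in wild type. Against all wild type GH3.3 and IAA30 did not pass with limma (adjusted p = 0.399 and 0.316). The auxin synthesis genes YUC4 and YUC2 differed by 2.31 and -1.43 (adjusted p = 0.155 and 0.14, and 1.25 and -0.87 against arrays 3 and 4).

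SLY2, an F-box gene of gibberellin signalling, was at 7.29 and 6.69 in the triple mutant, against 3.80, 3.80, 3.82 and 3.82 in wild type, at least 7.93-fold higher (adjusted p = 0.0117, and 0.0331 against arrays 3 and 4), and was bright in the double mutant at 7.62 and 5.90. It was the 1 gene of 6 gibberellin genes to pass. The gibberellin receptors GID1B and GID1A differed by 1.56 and 1.44 (adjusted p = 0.0664 and 0.0897, and 1.27 and 1.13 against arrays 3 and 4), and GID1C by -0.73 (adjusted p = 0.288, and -0.65). MYC3, a bHLH factor of jasmonate responses, was at 7.01 and 6.73, against 8.46, 7.85, 7.98 and 7.98, a difference of -1.20 ± 0.23 (adjusted p = 0.0349, and -1.11), and was at 6.41 and 6.47 in the double mutant. Its relative MYC4 differed by 0.30 (adjusted p = 0.71, and 0.17). The cytokinin, ethylene and brassinosteroid classes, with 4, 2 and 2 tested genes, held no call with limma. UGT76C2, a cytokinin glucosyltransferase, differed by -1.0 from all wild type (adjusted p = 0.433) but by -0.11 from arrays 3 and 4, and RR16, a cytokinin response regulator, by 0.73 and 1.1. The ethylene gene RTE1 differed by 0.56 and 0.54 and the brassinosteroid gene BIM1 by 0.45 and 0.27. Without triple mutant array 1 or 2 all 5 called hormone genes lost their calls (adjusted p = 0.111 to 0.357), and GH3.17 kept its call only without wild-type array 3. AT2G46140 and MYC3 lost theirs without wild-type array 1 or 4 or either double mutant array, and MYC3 also without wild-type array 3.

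Of 12 abscisic acid and water-stress genes tested, 10 lay above 0 and 1 passed, in the lowered direction. AT2G46140, named in the gene table as a late embryogenesis abundant gene, was at 2.85 and 2.72, against 4.14, 4.01, 5.02 and 4.43, at least 1.32-fold lower (adjusted p = 0.0371, and 0.0188 against arrays 3 and 4). The next 3 genes were picked after their values were seen, for being far higher on triple mutant array 1 than on array 2. LTI30, a dehydrin of cold and drought, was at 12.06 and 5.15, against 4.47, 6.42, 2.91 and 5.14, LEA4-5 at 8.93 and 3.27, against 2.31, 3.26, 2.11 and 2.1, and the gene JRG21, from the jasmonate class, at 8.13 and 2.14, against 2.13 to 2.14 on all wild-type arrays. None of the 3 passed with limma (adjusted p = 0.37, 0.219 and 0.278). HIS1-3, a linker histone of water stress, was at 8.91 and 7.76, against 2.12, 2.22, 2.14 and 2.23, at least 20.2-fold higher, and did not pass (adjusted p = 0.0523, and 0.0892 against arrays 3 and 4).

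Defence genes held 2 calls among 25 tested members of 6 classes, both raised, beside 2.13% raised and 1.68% lowered over all named genes. The median difference was 0.13 against all wild type and against arrays 3 and 4. ZW9, given above, was 1 of the 2 calls. It was the 1 tested gene of its class and entered the test only through mutant arrays. GTR2, a transporter that loads glucosinolates into the phloem, was at 10.42 and 10.01 in the triple mutant, against 8.67, 7.93, 8.80 and 8.74 in wild type, a difference of 1.68 ± 0.30 (adjusted p = 0.0298, and 1.44 against arrays 3 and 4 with an adjusted p = 0.0237). It was 1 of 9 glucosinolate and myrosinase genes and lost its call without wild-type array 1 or 4 or any 1 mutant array (adjusted p = 0.0533 to 0.275). None of 7 pathogenesis-related and antimicrobial genes, 4 WRKY factors, 3 jacalin lectins or BIK1 passed with limma. The defence classes hold only genes matched by name. Called genes outside them, such as AT1G52100, AT1G33790, AT1G65370 and AT2G25450, were not sorted by family. PDF1.4, a plant defensin, differed by 1.70 and LCR69, a defensin-like gene, by 1.28 (adjusted p = 0.353 and 0.315), and against arrays 3 and 4 by 1.68 and 0.39. ZAP1, a WRKY factor, differed by -0.64 (adjusted p = 0.179, and -0.41). JAL33, a jacalin lectin, was at 8.80 and 10.55, against 7.55, 6.47, 8.60 and 8.21, and differed by 1.97 (adjusted p = 0.178, and 1.27). CSA1, a TIR-NBS-LRR receptor gene outside these classes, was at 5.57 and 5.89, against 2.1 on all wild-type and double mutant arrays, at least 3.32-fold higher.

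Among 68 tested members of 6 metabolic classes, 3 were raised and none lowered with limma, beside 2.13% raised and 1.68% lowered over all named genes. Against arrays 3 and 4, 7 of 66 were raised and none lowered, beside 3.75% raised and 5.11% lowered over all named genes there. The peptidase genes scpl35 and SBT1.3, a serine carboxypeptidase-like gene and a subtilase, were 2 of 21 tested in their class. Of these, scpl35 was at 11.59 and 12.17, against 9.23, 8.38, 10.05 and 9.39 (2.62 ± 0.43, adjusted p = 0.0232, and 2.16 against arrays 3 and 4), and SBT1.3 at 12.32 and 12.71, against 11.41, 11.31, 11.45 and 11.37 (1.13 ± 0.18, adjusted p = 0.0226, and 1.11). CYP71B36, a cytochrome P450, was at 4.34 and 4.33, against 3.07, 2.1, 2.95 and 3.09, at least 1.26-fold higher (adjusted p = 0.045, and 0.0191). It entered both tests only through mutant arrays. Against arrays 3 and 4, the glutathione transferase GSTU16 (3.66, adjusted p = 0.00914), the glucosyltransferases UGT87A2 and UGT85A2 (1.34 and 1.44, adjusted p = 0.0377 for each) and the sucrose exporter SWEET11 (3.15, adjusted p = 0.0477) passed as well. SWEET11 lay below wild-type arrays 1 and 2, at 7.65 and 8.86, against 10.97, 10.90, 5.16 and 5.05. UGT85A2, at 7.72 and 7.33, overlapped wild-type arrays 1 and 2, at 7.06 and 8.21. Leaving out wild-type array 1 ended the calls of scpl35, SBT1.3 and CYP71B36 (adjusted p = 0.0517 to 0.0697). Without triple mutant array 1 or 2, scpl35 and SBT1.3 lost theirs (adjusted p = 0.126 to 0.282) and CYP71B36 was untested.

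Raised genes with a symbol but in no class included several enzymes. APS4, an ATP sulphurylase of sulphate assimilation, was at 9.92 and 9.84 in the triple mutant, against 6.74, 6.17, 7.97 and 6.98 in wild type (2.91 ± 0.45, adjusted p = 0.0177, and 2.40 against arrays 3 and 4). MMT, which methylates methionine to S-methylmethionine, was at 10.59 and 10.33, against 9.46, 9.36, 9.53 and 9.51 (0.99 ± 0.19, adjusted p = 0.0367, and 0.94). PPDK, pyruvate orthophosphate dikinase, was at 7.92 and 7.95, against 6.43, 6.12, 5.22 and 6.26 (1.93 ± 0.41, adjusted p = 0.049, and 2.20). ARPN, a plantacyanin, was at 9.68 and 10.44, against 5.94, 6.90, 6.88 and 7.07 (3.36 ± 0.37, adjusted p = 0.004, and 3.08). 2A6, a dioxygenase-like gene, was at 9.93 and 9.78, against 6.62, 6.62, 5.47 and 5.84 (3.72 ± 0.36, adjusted p = 0.00231, and 4.20), and was as bright in the double mutant, at 9.46 and 9.61. PIP, a proline iminopeptidase, differed by 1.77, CXE18, a carboxylesterase, by 2.11, and CYB-1, a cytochrome b561, by 1.14 (adjusted p = 0.0344, 0.0441 and 0.0494). From arrays 3 and 4 they differed by 1.41, 1.67 and 0.99, and CYB-1 did not pass there (adjusted p = 0.0614). Without triple mutant array 2, none of the 22 called symbol-bearing genes outside the classes kept a call with limma, and without array 1, 1 kept it. In each case 4 went untested. Without wild-type array 3, 17 kept theirs.

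None of 8 core cell cycle and replication genes passed with limma against all wild type, although all 8 lay below 0, with a median of -0.65. Against arrays 3 and 4, AUR2, an Aurora mitotic kinase, and PRL (PROLIFERA), the replication licensing factor MCM7, were lowered (-1.74 and -1.23, adjusted p = 0.0349 and 0.0294), with a median of -0.94 over 7 tested. HTR12, the centromeric histone, was lowered there too (-1.19, adjusted p = 0.023). At 5.81 and 5.66 in the triple mutant, HTR12 overlapped wild-type arrays 1 and 2, at 5.67 and 6.12. AUR2 was at 8.71 and 7.82 in the triple mutant, against 8.48, 8.61, 10.11 and 9.89 in wild type, so that it lay near wild-type arrays 1 and 2.

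Of 38 tubulin and microtubule-organising genes 3 passed, beside 3.81% of all named genes. Of these, iqd21 was lowered and TRM25 and TRM28 were raised. The iqd21 gene, of the calmodulin-binding IQD family, was at 6.53 and 7.60, against 10.12, 10.42, 9.22 and 9.51 (-2.75 ± 0.42, adjusted p = 0.0169, and -2.30 against arrays 3 and 4). TRM25 and TRM28, of the TON1 recruiting motif family, differed by 1.81 and 1.43 (adjusted p = 0.0454 and 0.0306, and 1.35 and 1.25 against arrays 3 and 4). TRM25 and TRM28 lost their calls without wild-type array 1 or 4 or any 1 mutant array, and iqd21 without either triple mutant array (adjusted p = 0.0554 to 0.352 over these). TRM25 also lost its call without wild-type array 2 (adjusted p = 0.0765). NET4B, an actin-binding protein, was at 7.37 and 6.74, against 5.20, 5.86, 5.24 and 5.17 (1.69, adjusted p = 0.0231, and 1.85). None of 45 vesicle trafficking genes passed with limma in either comparison, and their differences ran between -0.78 and 0.85. Of 38 ubiquitin pathway genes LUL1, a RING ubiquitin ligase, passed, at 6.77 and 7.23, against 2.1 on all wild-type and double mutant arrays, at least 7.98-fold higher. Outside the classes, other raised genes with a dim wild type were the chromatin remodelling genes CHR40 and CHR42 (at least 2.66-fold and 1.15-fold) and the zinc finger gene IDD16 (at least 1.39-fold).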

How the data were processed

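Total RNA of apices was measured on 1-colour Affymetrix ATH1 arrays, 1 sample per array. The deposited values are log2 signals. Per the submitters' processing notes the authors used GCRMA under R 2.7.2, with settings that the sources used here do not give. Of 22810 probe sets, 64 controls were left out. A probe set was tested if at least 2 of 8 arrays exceeded a log2 value of 4, which 13888 did.

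The two-sided test was limma's (version 3.58.1, R 4.3.3; lmFit, then eBayes), with Benjamini-Hochberg adjustment over every probe set tested and a threshold of 0.05. The 3 genotypes were fitted together over 8 arrays, leaving 5 residual degrees of freedom. The comparison with wild-type arrays 3 and 4 left out wild-type arrays 1 and 2 and had 3. Names came from the platform annotation and the TAIR10.1 gene table. Of the tested probe sets, 7512 name 1 gene, 278 several and 6098 none. Where probe sets shared a gene, the one brightest on average stood for it, which left 7433 genes.

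The members and lists were chosen with earlier results of these data known, and false matches were removed from the 51 symbol-based classes after values had been seen. By rule the text names YABBY genes, 12 genes each with the highest and the lowest differences that passed in both comparisons without overlap, up to 4 called members of each class or up to 2 uncalled ones, and called genes within 25 genes of YAB5, YAB3 or FIL. Other genes named, such as class members called only against wild-type arrays 3 and 4 and symbol-bearing genes outside the classes, were chosen after their values were seen. The number of arrays limits the precision.

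Alternatives were other filters, scalings, variance models, choices of wild-type arrays, a replicate block and leaving out each array. In simulated data with 200 of 13888 probe sets changed, 19.3%, 75.8% and 92.2% of changes of 1, 2 and 4 log2 units were called, and 6.38% of calls were false. The simulated noise had neither wild-type pairs nor a floor. Scripts ran in Python 3.11.15, with figures from matplotlib 3.10.9.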

Additional observations from a re-analysis of the deposited data

Results flagged for a closer look

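Among 75 sets of 4 wild-type values examined, 5 had 1 array far from the other 3 (Dixon's test). Chance flags about 1 in 20 among independent values without ties. The wild-type arrays form 2 pairs and some values tie, so that rate may not hold here. WRKY47, a WRKY factor, was at 5.13 on wild-type array 3 and between 3.48 and 3.75 on the others. GTR2 was at 7.93 on wild-type array 2 and between 8.67 and 8.80 on the others. AT5G15360 was at 10.19 on wild-type array 2 and at 10.1328 on each of the others, a tie that lets a small gap be flagged. ARPN was at 5.94 on wild-type array 1 and between 6.88 and 7.07 on the others. NET4B was at 5.86 on wild-type array 2 and between 5.17 and 5.24 on the others.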

How the results depend on the processing

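The count of 538 probe sets (308 raised, 230 lowered) depended on the arrays used, most on the triple mutant arrays: without array 1 or 2 it was 46 and 47. It was 1265 (566 and 699) against wild-type arrays 3 and 4 alone, 3366 (1536 and 1830) against arrays 1 and 2 alone, 2484 (1078 and 1406) against the mean of the pairs fitted as separate groups, and 1455 (651 and 804) against arrays 3 and 4 in that fit. Array weights gave 1826 (851 and 975), and only the wild-type and triple mutant arrays in the fit gave 305 (201 and 104). Deviations of same-numbered triple mutant and wild-type arrays from their group means had r = -0.0299 and -0.0208. The shift between the wild-type pairs enters these deviations, so they cannot show whether the numbers pair the samples. The main fit does not pair them, and a replicate block gave 2500 (1134 and 1366). Without 1 array, counts ran between 46 and 578 (33 to 334 raised, 13 to 244 lowered).

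With the probe sets tested with all arrays kept, an alternative added after seeing the data, leaving out wild-type array 1 gave 303 (186 and 117), array 2 gave 148 lowered and array 4 gave 348 with 122 lowered. Leaving out double mutant array 1 or 2 gave 305 (201 and 104) each. Leaving out triple mutant array 1 gave 122 (97 and 25), and array 2 gave 129 (105 and 24). No filter, a filter at 6, a filter on 6 arrays, quantile normalization, median centring, an intensity trend and removal of ambiguous probe sets left the count between 422 and 566. Against wild-type arrays 3 and 4 alone, no filter gave 354 (165 and 189), and leaving out 1 array gave 11 to 165 (5 to 122 raised, 6 to 43 lowered). The cause of these shifts was not tested.

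Of 79 genes named by rule and 22 chosen after their values were seen, 5 uncalled ones changed sign. ndhD was at 0.0166 against arrays 3 and 4 with the pairs as separate groups. AT4G38100 was at -0.25 against arrays 3 and 4 in either fit, and ran between -0.0130 and 0.91 without 1 array, lowest without wild-type array 2. CSLA03 was at 0.44 against arrays 3 and 4 in either fit. BIK1 was at 0.16 without wild-type array 2 and at 0.0466 without wild-type array 3. WRKY47 was at 0.0144 with the replicate block. Calls near the floor have only a lower bound, and small differences of single genes are within the shift between the wild-type pairs.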
